A study of Arabidopsis thaliana with 8 samples.

Results

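The UDP-glycosyltransferase (UGT) and serine carboxypeptidase-like (SCPL) genes were taken by symbol from the array annotation, as every gene named UGT or SCPL followed by a digit. This gave 49 of the 7234 named genes, of which 36 were UGT genes with 38 probes and 13 were SCPL genes with 13 probes. All 49 had a value on every array, and no filter on low values was applied. RefSeq holds 58 genes with a UGT symbol and 49 with an SCPL symbol, so both families were named only in part. The annotation names 7440 of the 37685 probes, and whether further UGT and SCPL genes lie on the other probes was not examined. Of the SCPL genes, only SCPL16 (AT3G12220) carried a number from 1 to 19, the range that includes the known acyltransferases. The other 12 were numbered 20 and over, so that the description acyltransferase-like applies by number to 1 of the 13 genes.

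The arrays compared the lower primary inflorescence stem of SND2-OV(A) with that of wild type Arabidopsis thaliana Col-0 plants, at 8 weeks and at 4 weeks of age. SND2-OV(A) is 1 homozygous T4 line that carries the SND2 coding sequence in the vector pMDC32 behind a constitutive viral promoter, and it was picked from several lines because CesA8 was raised in it. SND2 is a NAC domain transcription factor of fibre secondary wall formation, and the comparison asked which transcripts differ when it is overexpressed. There were 3 biological replicates per age, each a pool of plants per genotype. The methods describe hygromycin selection of the line for the 8-week experiment and none for the 4-week experiment, whereas the sample labels give hygromycin for both. Age and selection can therefore not be told apart. In these whole-stem samples, fewer cells of a type and less RNA per cell cannot be told apart either.

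UGTs transfer a sugar, usually glucose, from a UDP-sugar to small molecules such as monolignols, flavonoids, hormones and glucosinolate precursors. The product is a glycoside, or a glucose ester where the acceptor is a carboxylic acid such as sinapate. Some SCPL proteins use such glucose esters as acyl donors in place of acyl-CoA and make, for example, sinapoylmalate and sinapoylcholine. Other SCPL proteins are related to peptidases. In lignifying stems, glucosides of monolignols are made by UGTs of subfamily 72 and glucose esters of hydroxycinnamates by UGTs of subfamily 84. The genes of subfamilies 73 and 76 are known for flavonoid, hormone and defence substrates and for the conjugation of xenobiotics.

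Values are given as the SND2-OV(A)-to-wild-type log2 ratio, so that a positive value means a higher transcript level in SND2-OV(A). Each age had 4 arrays, since the RNA of replicate 1 was hybridized with the line in Cy3 and again with the line in Cy5. The SND2 probe, the check of the labels, had ratios of 7.25, 5.23 and 7.60 at 8 weeks and of 2.97, 2.75 and 3.37 at 4 weeks. At 8 weeks the Cy5-labelled array of replicate 1 (dye of the line) stood apart, with an SD over probes of 1.01, against 0.308 to 0.347 for the other 3 arrays of that age. The values used here hold no intensities, so whether a probe was above background is not known, and precision is limited by their number. No probe sequence was used here, and cross-hybridization between close paralogs was not examined.

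At 8 weeks both families had medians close to 0, and those of all features lay close to 0 too. The median ratio of the 36 UGT genes was -0.073, with replicate medians of -0.11, -0.043 and -0.016 (SD 0.050, n = 3). The median of the 13 SCPL genes was -0.076, with replicate medians of 0.070, 0.025 and -0.12 (SD 0.098, n = 3). Over all 37479 features fitted (7234 named genes and 30245 unnamed probes) the median was -0.035, and over the named genes alone it was -0.0074. The mean ratio was above 0 for 14 and below 0 for 22 UGT genes, and above 0 for 4 and below 0 for 9 SCPL genes. Of all features, 62.1% lay below 0 at this age, and of the named genes 52.6%. In the plot of medians by replicate, the points of both families span as much as or more than the distance between the family and the background medians.

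**Figure D1:**
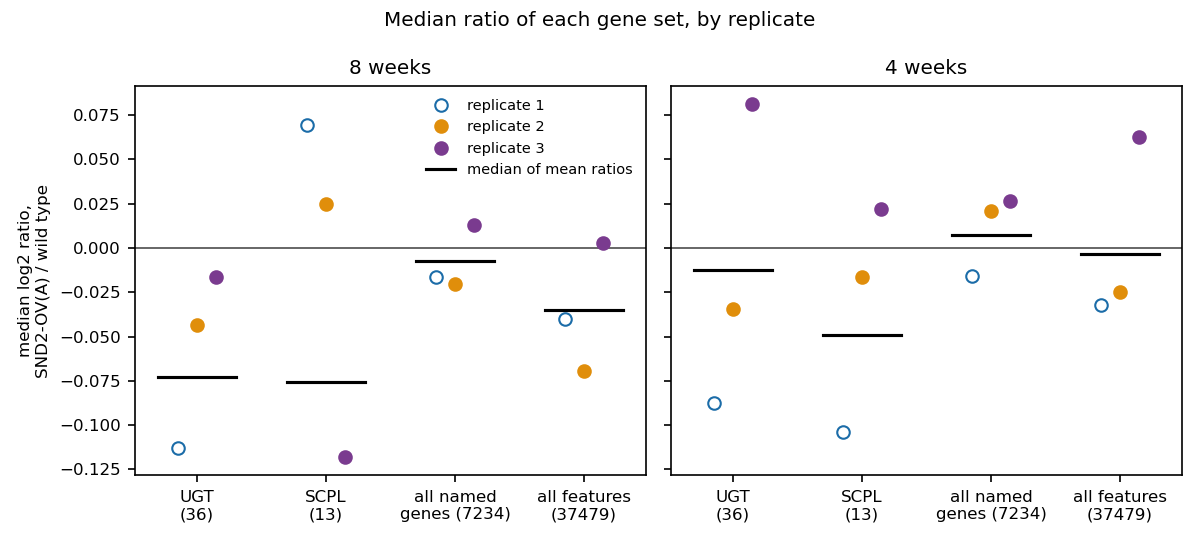
Median SND2-OV(A)-to-wild-type log2 ratio (vertical axis) of the 36 UGT genes, the 13 SCPL genes, the 7234 named genes and all 37479 features, at 8 weeks (left) and 4 weeks (right). Points are the medians in single replicates and bars the median of the mean ratios; the 8-week UGT bar lies at -0.073 and the SCPL bar at -0.076, against -0.035 for all features.

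No gene of either family passed at an adjusted p under 0.05 with a change over 1.5-fold at 8 weeks, by limma with Benjamini-Hochberg adjustment over all features. None of the 37479 features passed either (0%), the smallest adjusted p over all features being 0.44 and over the members 0.986. The study's own fit of these arrays listed 223 probes at the same thresholds for 8 weeks, and it called genes at 4 weeks too. The SND2 probe itself did not pass in the fit used here, and why the fits differ was not tested. At an unadjusted p under 0.05 there were 3 UGT genes higher and 2 lower, and 0 SCPL genes higher and 1 lower, against 1.32% of all features higher and 2.19% lower. One sign in all 3 replicates was found for 6 UGT genes higher and 7 lower, which is 16.7% and 19.4% of the family, against 7.73% and 18.4% of all features and 10.5% and 13.1% of named genes. For the SCPL genes these counts were 1 and 1. A mean change over 1.5-fold was found for 1 UGT gene higher (UGT76B1) and 1 lower (UGT73B4) and for 0 SCPL genes, against 0.454% of all features higher and 2.77% lower. With replicate 1 taken from its Cy3 array alone, the count lower was 0. The 5 UGT genes at an unadjusted p under 0.05 became 3 without replicate 1, 2 without replicate 3 and 3 with replicate 1 taken from its Cy5 array alone. The 1 SCPL gene became 0 without replicate 2 and 2 with that Cy5 array alone. Absence of a call does not show equal levels. The 95% limma interval lay within a 1.5-fold change in both directions for 24 of 36 UGT and 10 of 13 SCPL genes at 8 weeks, and for 25 of 36 and 9 of 13 at 4 weeks. Over all features the share was 83.6% at 8 weeks and 66.7% at 4 weeks.

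**Figure D2:**
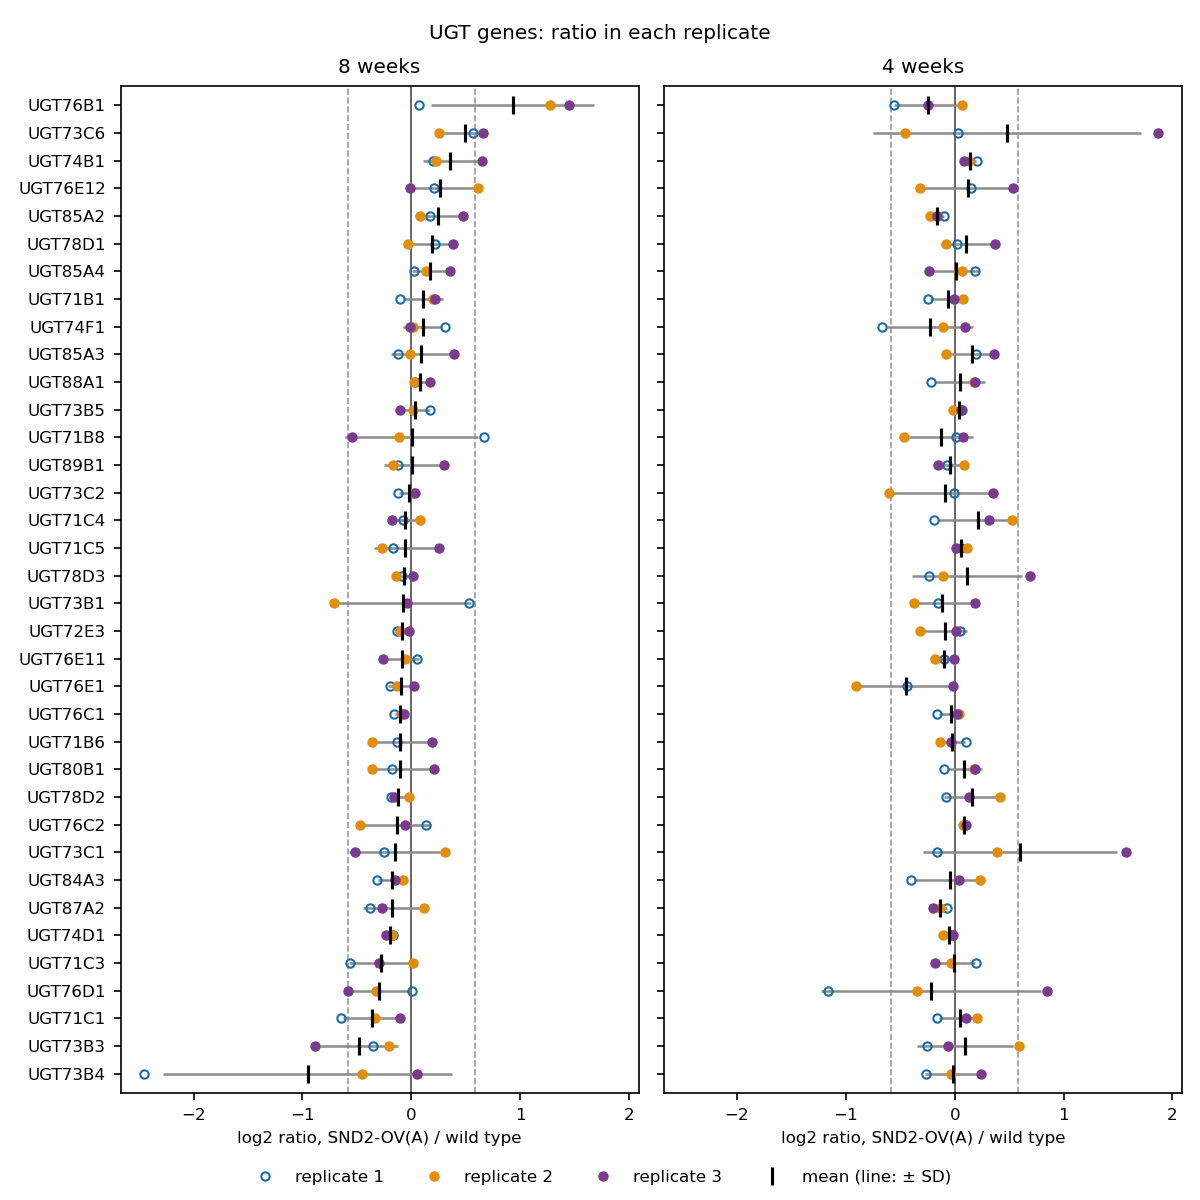
SND2-OV(A)-to-wild-type log2 ratio (horizontal axis) of each of the 36 UGT genes at 8 weeks (left) and 4 weeks (right), ordered by the 8-week mean. Circles are the 3 replicates (open for replicate 1, the mean of its 2 arrays), ticks the mean, grey lines ± SD and dashed lines a 1.5-fold change; UGT76B1 at the top averaged 0.93 and UGT73B4 at the bottom -0.95 at 8 weeks.

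Among the UGT genes that stood highest at 8 weeks, UGT73C6 (AT2G36790), a flavonol glycoside glucosyltransferase that also acts on brassinosteroids, had ratios of 0.57, 0.26 and 0.65. All 3 replicates were above 0, and so was each of the 2 arrays of replicate 1. Its mean was 0.49 ± 0.21 (SD, n = 3) with a 95% interval from 0.19 to 0.80, a limma p of 0.00954 and an adjusted p of 0.986. UGT76B1 (AT3G11340), which glucosylates isoleucic acid, salicylic acid and N-hydroxypipecolic acid, had ratios of 0.072, 1.27 and 1.45. Replicates 2 and 3 were high while replicate 1 was near 0, at -0.15 on the array with the line in Cy3 and 0.29 on that in Cy5. The mean was 0.93 ± 0.75 (SD, n = 3), or 1.91-fold, with an interval from 0.15 to 1.72 and an adjusted p of 0.986. UGT74B1 (AT1G24100), the S-glucosyltransferase of glucosinolate core biosynthesis, had ratios of 0.20, 0.23 and 0.65. It was above 0 in every replicate, and its mean of 0.36 ± 0.25 (SD, n = 3) had an interval from 0.025 to 0.69 and an adjusted p of 0.986. UGT85A2 (AT1G22360) had ratios of 0.17, 0.079 and 0.48, all above 0, and averaged 0.24 ± 0.21 (SD, n = 3), with an interval from -0.062 to 0.55.

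At the low end of the same age, UGT73B3 (AT4G34131), a gene linked to the response to bacterial infection, had ratios of -0.35, -0.20 and -0.88. Replicate 3 was the lowest, and all 3 lay below 0. The mean was -0.48 ± 0.36 (SD, n = 3) with an interval from -0.90 to -0.056 and an adjusted p of 0.986. UGT71C1 (AT2G29750), which acts on flavonols and hydroxycinnamates in vitro, had ratios of -0.64, -0.34 and -0.11 and averaged -0.36 ± 0.27 (SD, n = 3), with an interval from -0.71 to -0.012. UGT74D1 (AT2G31750), an auxin glucosyltransferase, was the least variable of these genes, with ratios of -0.17, -0.18 and -0.24. Its mean of -0.20 ± 0.037 (SD, n = 3) had an unadjusted p of 0.074 in limma, which draws the spread of each gene toward that of all features. UGT76D1 (AT2G26480), which glucosylates dihydroxybenzoic acids, had ratios of 0.0044, -0.33 and -0.58 and averaged -0.30 ± 0.29 (SD, n = 3).

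The lowest UGT mean at 8 weeks, that of UGT73B4 (AT2G15490), rested on 1 of its probes, and mainly on 1 array. This gene, known for conjugating explosives and other xenobiotics, is named here after its values were seen. It has 2 probes, and on the wide array of replicate 1 one of them stood at -10.04 while the other stood at 0.26. With the line in Cy3, the same RNA gave -0.16 and 0.12. The ratios per replicate were -2.46, -0.45 and 0.056 over both probes, with a mean of -0.95 ± 1.33 (SD, n = 3). For the first probe alone they were -5.10, -1.10 and -0.20, all below 0. For the second probe alone they were 0.19, 0.20 and 0.31, all above 0. The 2 probes thus disagreed in direction, and the adjusted p over both was 0.986. The other gene with 2 probes, UGT88A1 (AT3G16520), averaged 0.097 and 0.058 on them at 8 weeks.

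For replicate 1, the plot of the dye-swapped arrays sets the same RNA against itself. At 8 weeks the 2 arrays gave the same sign for 25 of 36 UGT genes (69.4%) and 8 of 13 SCPL genes (61.5%), against 43.7% of all features. At 4 weeks they did so for 20 of 36 (55.6%) and 7 of 13 (53.8%), against 45.9% of all features. The median difference between the 2 arrays was 0.20 at 8 weeks and 0.19 at 4 weeks for UGT genes, and 0.21 and 0.23 for SCPL genes. That difference is of the same order as the median SD between replicates, which was 0.23 at 8 weeks and 0.23 at 4 weeks for UGT genes and 0.25 and 0.23 for SCPL genes. The largest gap at 4 weeks was that of UGT76D1, at -2.27 with the line in Cy3 and -0.058 with the line in Cy5.

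**Figure D3:**
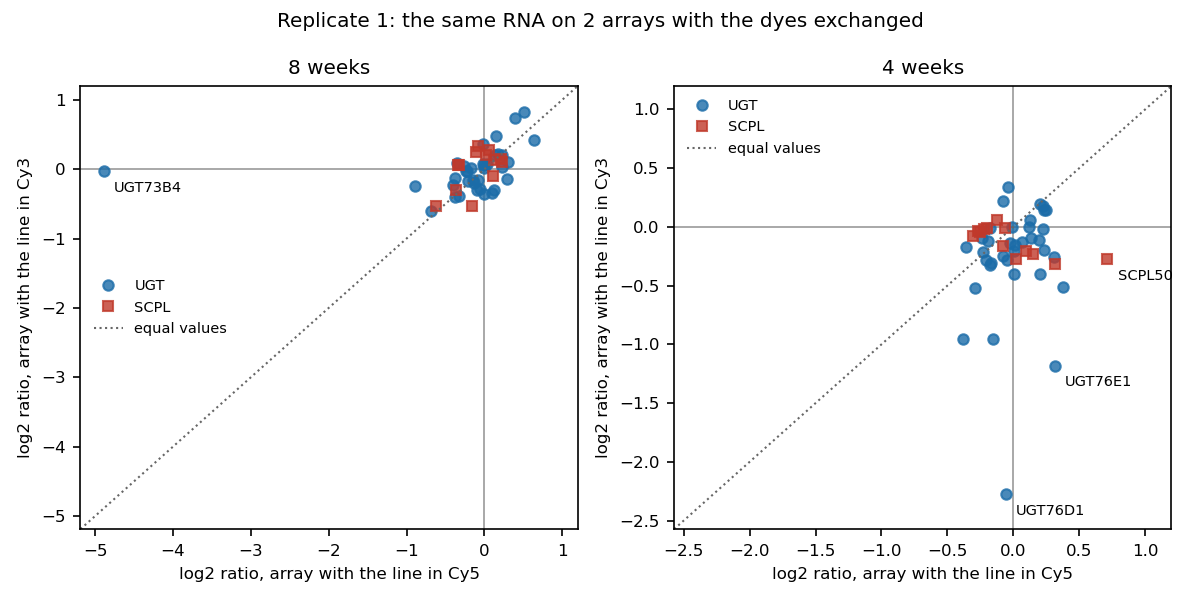
SND2-OV(A)-to-wild-type log2 ratio on the 2 arrays of replicate 1, with the line in Cy5 (horizontal axis) and in Cy3 (vertical axis), for the UGT and SCPL genes at 8 weeks (left) and 4 weeks (right). Points on the dotted line have equal values; UGT73B4 lies far from it at 8 weeks and UGT76D1 and UGT76E1 at 4 weeks.

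The 13 SCPL means spanned a narrower range than the 36 UGT means at both ages. A range tends to widen with the number of genes, so this is not read as a weaker response. The SCPL means ranged from -0.41 to 0.12 at 8 weeks and from -0.29 to 0.18 at 4 weeks. Those of UGT genes ranged from -0.95 to 0.93 and from -0.45 to 0.60, where -0.95 is the value of UGT73B4 described above. SCPL35 (AT5G08260) was the lowest SCPL gene at 8 weeks, with ratios of -0.57, -0.53 and -0.12. All 3 replicates were below 0, and the mean of -0.41 ± 0.25 (SD, n = 3) had an interval from -0.74 to -0.072 and an adjusted p of 0.986. At 4 weeks its ratios were -0.036, -0.14 and 0.022. SCPL31 (AT1G11080) had ratios of 0.070, -0.37 and -0.57 at 8 weeks, with replicate 1 apart from the others, and of -0.12, 0.36 and 0.26 at 4 weeks. SCPL50 (AT1G15000) was the only SCPL gene above 0 in every 8-week replicate, at 0.18, 0.025 and 0.16, with a mean of 0.12 ± 0.083 (SD, n = 3). Its 4-week ratios of 0.22, -0.87 and 0.17 went both ways. SCPL16, the 1 gene of the acyltransferase range, had ratios of 0.12, -0.16 and -0.062 at 8 weeks and of -0.055, 0.13 and -0.066 at 4 weeks. Its means of -0.036 ± 0.14 and 0.0036 ± 0.11 (SD, n = 3 each) had intervals from -0.30 to 0.23 and from -0.29 to 0.30. The remaining 9 SCPL genes had 8-week means from -0.16 (SCPL48) to 0.080 (SCPL25).

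**Figure D4:**
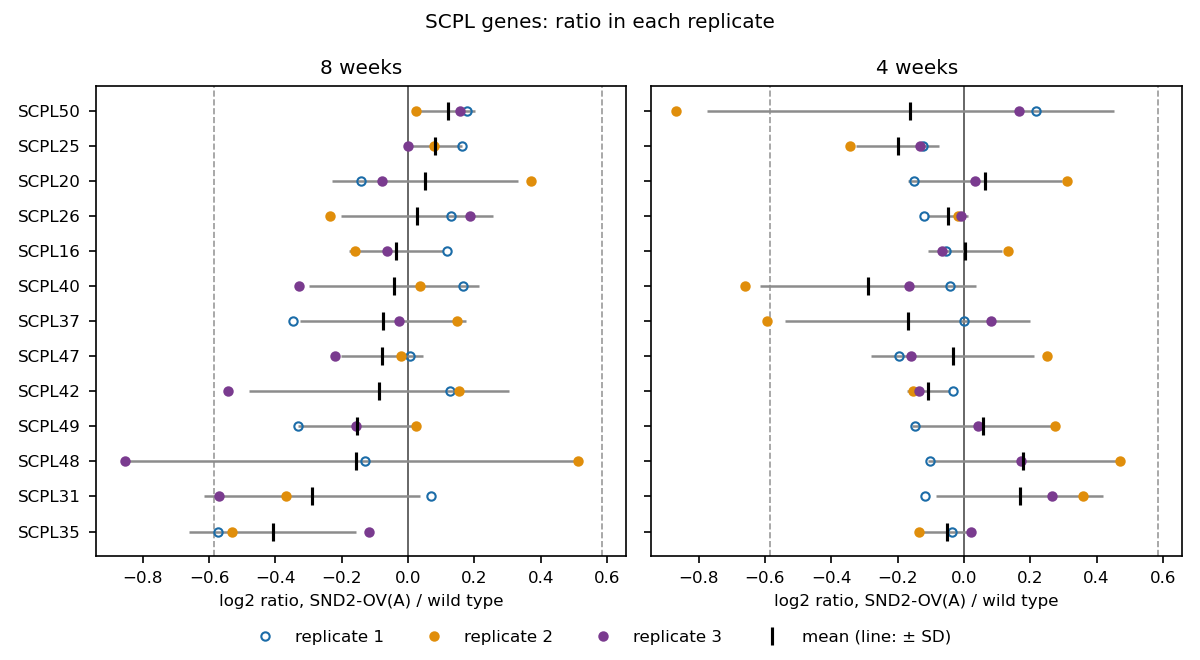
SND2-OV(A)-to-wild-type log2 ratio (horizontal axis) of each of the 13 SCPL genes at 8 weeks (left) and 4 weeks (right), ordered by the 8-week mean. Circles are the 3 replicates, ticks the mean, grey lines ± SD and dashed lines a 1.5-fold change; no SCPL mean reaches a dashed line, and SCPL35 is lowest at -0.41 at 8 weeks.

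At 4 weeks the medians were -0.012 for the UGT genes (replicates -0.088, -0.035 and 0.082) and -0.049 for the SCPL genes (replicates -0.10, -0.017 and 0.022). The replicate medians went both ways in both families, as did those of all features, at -0.032, -0.025 and 0.063. No gene of either family passed the thresholds in limma, and none had an unadjusted p under 0.05, against 0% of all features passing and 0.355% higher and 0.632% lower at an unadjusted p under 0.05. Without replicate 3 the count of UGT genes at an unadjusted p under 0.05 was 2. The smallest adjusted p over all features was 0.373, and that of every member was 1.0. One sign in all 3 replicates was found for 3 UGT genes higher and 5 lower and for 0 SCPL genes higher and 4 lower, against 8.88% and 7.98% of all features. With replicate 1 taken from its Cy5 array alone, the UGT counts were 5 higher and 1 lower and the SCPL count lower was 2. A mean over 1.5-fold was found for UGT73C1 alone, against 1.05% of all features higher and 1.52% lower. With replicate 1 taken from its Cy3 array alone 1 UGT gene was over 1.5-fold higher and 2 were lower, and with its Cy5 array alone 0 were higher and 0 lower. The mean of UGT73C1 was 0.11 without replicate 3.

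Several of the genes with larger 4-week ratios had replicates far apart. UGT73C1 (AT2G36750), which glucosylates cytokinins and xenobiotics, had ratios of -0.17, 0.39 and 1.57 and averaged 0.60 ± 0.89 (SD, n = 3). Its neighbour UGT73C6 had ratios of 0.027, -0.46 and 1.87. Replicate 3 was the highest in both genes, and the array of replicate 3 had 2023 probes over 2-fold higher and 35 over 2-fold lower. UGT76E1 (AT5G59580), which glucosylates a hydroxylated jasmonate, was the lowest gene, with ratios of -0.43, -0.91 and -0.014 and a mean of -0.45 ± 0.45 (SD, n = 3). The 2 arrays of its replicate 1 stood at -1.18 with the line in Cy3 and 0.31 with the line in Cy5. UGT76D1, described above, had its gap in the same orientation, and its replicates, at -1.17, -0.34 and 0.85, spread over the widest range of any member at this age apart from UGT73C6. That Cy3 array had 2759 probes over 2-fold lower and 92 over 2-fold higher. The part of these arrays in the gene values was not tested.

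Other genes at the ends of the 4-week order had smaller ratios, some of one sign in all 3 replicates. UGT74B1 was above 0 in every replicate, at 0.20, 0.13 and 0.089, and averaged 0.14 ± 0.057 (SD, n = 3). UGT87A2 (AT2G30140), a gene that affects flowering time, was below 0 in every replicate, at -0.069, -0.13 and -0.20. Within its replicate 1, the array with the line in Cy5 stood at 0.014. UGT85A2 was below 0 in every replicate too, at -0.10, -0.23 and -0.16, with a mean of -0.16 ± 0.064 (SD, n = 3). Its neighbour UGT85A3 (AT1G22380) had ratios of 0.19, -0.083 and 0.36, and UGT71C4 (AT1G07250) of -0.19, 0.52 and 0.31, so that both went either way. SCPL25 (AT3G02110) was below 0 in every replicate, at -0.12, -0.34 and -0.13, and so was SCPL40 (AT3G63470), at -0.042, -0.66 and -0.17. The arrays of replicate 1 differed in sign for both. SCPL25 stood at -0.27 with the line in Cy3 and 0.024 in Cy5, and SCPL40 at -0.23 and 0.15. SCPL48 (AT3G45010) had ratios of -0.10, 0.47 and 0.17.

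The difference between the ages, tested in one limma fit of the 6 replicate ratios, gave 0 calls among the members and 0% over all features. Every member had an adjusted p of 1.0. At an unadjusted p under 0.05 there were 2 UGT genes with a higher ratio at 8 weeks and 0 with a lower one, and 0 SCPL genes, against 0.568% of all features higher and 1.04% lower. UGT76B1 differed by 1.18 ± 0.39 (SE), with 8-week ratios of 0.072 to 1.45 and 4-week ratios of -0.55, 0.065 and -0.25. The age groups did not overlap, but the gap between the lowest 8-week and the highest 4-week replicate was narrow. UGT85A2 differed by 0.41 ± 0.15 (SE) and was above 0 in all 3 replicates at 8 weeks and below 0 in all 3 at 4 weeks. Within replicate 1 at 4 weeks, its value with the line in Cy5 was at 0.0029. The interval of the difference ran from 0.25 to 2.1 for UGT76B1 and from 0.035 to 0.78 for UGT85A2, before any adjustment. The replicates of the ages also did not overlap for UGT74B1 and SCPL25, higher at 8 weeks, and for UGT74D1, lower at 8 weeks. That makes 4 of 49 members higher and 1 lower, against 2.14% and 4.38% of all features. For UGT74B1 the lowest 8-week ratio was 0.2027 and the highest 4-week ratio 0.2017, and for UGT76B1 these were 0.0724 and 0.0654, so that both were barely apart. The UGT count at an unadjusted p under 0.05 became 1 without replicate 1, 0 without replicate 2 and 0 without replicate 3, while the SCPL count became 1 without replicate 1 and 1 without replicate 3. The UGT count was 1 with replicate 1 taken from its Cy5 arrays alone, and the SCPL count was 2 with a dye term in the fit.

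At the other end, the 8-week ratio was lower than the 4-week ratio by 0.57 ± 0.28 (SE) for UGT73B3 and by 0.41 ± 0.19 for UGT71C1. The 4-week ratios were -0.25, 0.59 and -0.064 for UGT73B3 and -0.16, 0.21 and 0.11 for UGT71C1, so that both genes had 4-week replicates on either side of 0. UGT78D2 (AT5G17050) differed by -0.28 ± 0.17 (SE), UGT76E1 by 0.35 ± 0.24, SCPL31 by -0.46 ± 0.22, SCPL35 by -0.36 ± 0.17, SCPL25 by 0.28 ± 0.14 and SCPL40 by 0.25 ± 0.22. The interval of the age difference reached past 1.5-fold for 22 of 36 UGT and 8 of 13 SCPL genes, and for 20207 of all 37479 features. The age difference was thus less well resolved than the ratio at either age.

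**Figure D5:**
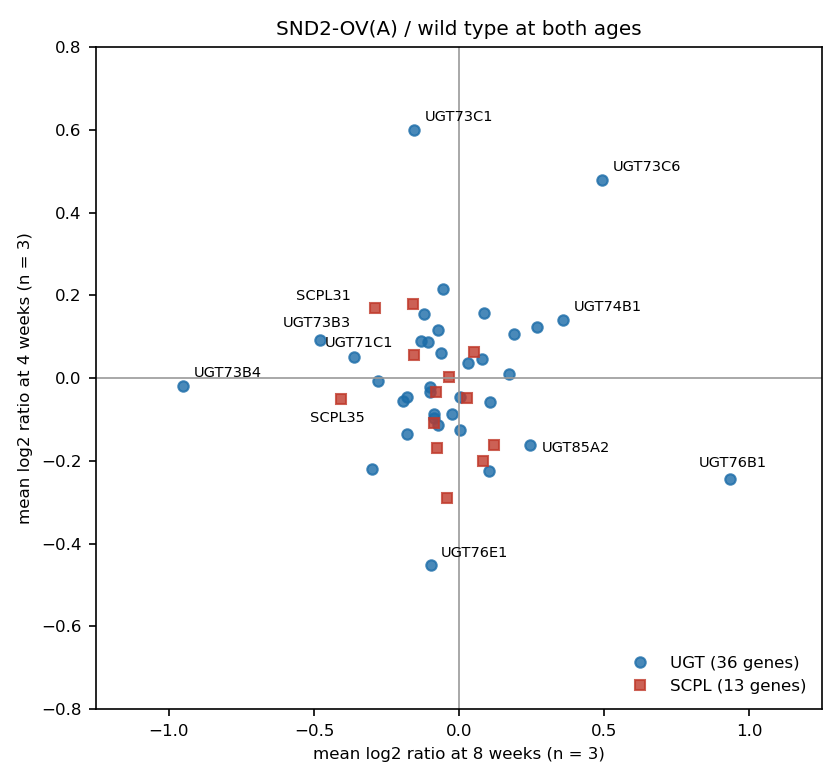
Mean SND2-OV(A)-to-wild-type log2 ratio at 8 weeks (horizontal axis) and 4 weeks (vertical axis) of the 36 UGT genes (circles) and 13 SCPL genes (squares), n = 3 replicates per age. Most genes lie near the origin; UGT73C6 stands to the upper right at 0.49 and 0.48, UGT76B1 to the right at 0.93 and -0.24, and UGT73B4 to the left at -0.95 and -0.019.

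By subfamily, given by the number after UGT, 6 of the 12 subfamilies had 3 or more named genes. Subfamily 85 was the only one of these with every gene above 0 at 8 weeks, with a median of 0.17 over 3 genes. Of these, UGT85A2 and UGT85A4 (AT1G78270) were above 0 in all 3 replicates. For UGT85A4, replicate 1 stood at 0.059 with the line in Cy3 and at -0.0079 with the line in Cy5. At 4 weeks the median of the subfamily was 0.0088. Subfamily 71 had a median of -0.062 over 7 genes at 8 weeks, with replicate medians of -0.13, -0.11 and -0.11, and 5 of its 7 genes were below 0. At 4 weeks its median was -0.0060 with replicate medians above 0. Subfamily 73 held the lowest gene of the 8-week order and ran from -0.95 to 0.49 over 7 genes, and subfamily 76 held the highest and ran from -0.30 to 0.93 over 7 genes. Their medians were -0.074 and -0.098 at 8 weeks and 0.037 and -0.096 at 4 weeks. The 3 genes of subfamily 74 had a median of 0.10 at 8 weeks and -0.055 at 4 weeks. The 3 genes of subfamily 78 had one of -0.072 at 8 weeks and 0.12 at 4 weeks. Since these groups are small and their replicate medians mostly went both ways, no order among the subfamilies is drawn from them.

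By gene order in RefSeq, 21 of the 36 UGT genes lie within 3 gene positions of another UGT gene named on the array, in 9 groups. Neighbouring genes had close means in some groups and unlike means in others. The 8-week means were -0.13 and -0.10 for UGT76C2 and UGT76C1 and -0.072 and -0.12 for UGT78D3 and UGT78D2. UGT71C5 and UGT71C4 were at -0.062 and -0.056, but UGT71C3 (AT1G07260), of the same group, was lower at -0.28. In the group of UGT73C1, UGT73C2 (AT2G36760) and UGT73C6, the 8-week means were -0.15, -0.025 and 0.49. The pair UGT73B3 and UGT73B1 (AT4G34138) had 8-week means of -0.48 and -0.074, and UGT73B1 alone ranged from -0.71 in replicate 2 to 0.53 in replicate 1. The median of the 21 genes was -0.072 at 8 weeks and 0.037 at 4 weeks, while that of the 15 genes without such a neighbour was -0.088 and -0.047.

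Grouped by substrate, the UGTs of hydroxycinnamates and monolignols were represented by 3 of 8 listed genes. UGT72E3 (AT5G26310), which glucosylates sinapyl alcohol and related compounds, had ratios of -0.14, -0.11 and -0.018 at 8 weeks and of 0.044, -0.31 and 0.011 at 4 weeks. UGT84A3 (AT4G15490), which makes glucose esters of hydroxycinnamates, had ratios of -0.31, -0.077 and -0.15 at 8 weeks and of -0.40, 0.23 and 0.040 at 4 weeks. Both were below 0 in all 3 replicates at 8 weeks, as were 18.4% of all features. Their means were -0.088 ± 0.062 and -0.18 ± 0.12 (SD, n = 3 each). Their intervals, from -0.32 to 0.14 and from -0.43 to 0.071, included 0. Within replicate 1 at 8 weeks, UGT72E3 went both ways, at 0.0825 with the line in Cy3 and -0.355 with the line in Cy5. UGT72B1 (AT4G01070), which conjugates chlorinated phenols and monolignols and is annotated under another symbol, is not counted among the 36. It had ratios of -0.34, 0.27 and -0.43 at 8 weeks and of -0.088, 0.49 and -0.28 at 4 weeks. The median of the 3 genes was -0.17 at 8 weeks and -0.045 at 4 weeks, with 0 of 3 at an unadjusted p under 0.05 at either age.

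Of 10 listed UGTs of flavonoids, 5 were named on the array, and they went both ways. Beside UGT73C6, the flavonol rhamnosyltransferase gene UGT78D1 (AT1G30530) had ratios of 0.21, -0.031 and 0.38 at 8 weeks and of 0.021, -0.076 and 0.37 at 4 weeks. The flavonoid glucosyltransferase gene UGT78D2 had ratios of -0.19, -0.026 and -0.16 at 8 weeks and of -0.080, 0.42 and 0.13 at 4 weeks. UGT78D3 (AT5G17030), a flavonol arabinosyltransferase, had ratios of -0.088, -0.14 and 0.014 at 8 weeks and of -0.24, -0.10 and 0.69 at 4 weeks. UGT79B6 (AT5G54010), which extends flavonol glucosides and is not counted among the 36, had ratios of -0.074, 0.018 and 0.075 at 8 weeks and of -0.54, 0.43 and -0.22 at 4 weeks. The median of the 5 genes was 0.0066 at 8 weeks and 0.12 at 4 weeks, and the 8-week median was -0.064 with the Cy3 array of replicate 1 alone. UGT73C6 was the 1 gene of them at an unadjusted p under 0.05, at 8 weeks, against 1.32% of all features higher.

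Among UGTs of hormones, 9 of 18 listed genes were named on the array, and their median was -0.10 at 8 weeks and -0.035 at 4 weeks, the 4-week value being 0.0045 with the Cy5 array of replicate 1 alone. At 8 weeks 3 were above 0 and 6 below, against 62.1% of all features and 52.6% of named genes below 0. UGT76B1 was the 1 gene at an unadjusted p under 0.05, against 1.32% of all features higher. The abscisic acid glucosyltransferase genes UGT71B6 (AT3G21780), UGT71B8 (AT3G21800) and UGT71C5 (AT1G07240) averaged -0.10, 0.0027 and -0.062 at 8 weeks. UGT71B8 ranged from -0.54 in replicate 3 to 0.66 in replicate 1. The cytokinin N-glucosyltransferase genes UGT76C1 (AT5G05870) and UGT76C2 (AT5G05860) averaged -0.10 ± 0.049 and -0.13 ± 0.31 (SD, n = 3 each) at 8 weeks, and UGT76C1 was below 0 in every replicate. The salicylic acid glucosyltransferase gene UGT74F1 (AT2G43840) averaged 0.10 ± 0.18 at 8 weeks and -0.23 ± 0.40 at 4 weeks (SD, n = 3 each).

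Of 10 listed UGTs of stress and xenobiotics, 6 were named on the array. At 8 weeks 5 were below 0 and 1 above, with a median of -0.22, and UGT73B3 and UGT71C1 were the 2 genes at an unadjusted p under 0.05, both lower, against 2.19% of all features lower. That median includes UGT73B4, and with replicate 1 taken from its Cy3 array alone it was -0.12, with 4 genes below 0 and 2 above. The placement of genes in the lists was a choice made with earlier results of these data known. UGT71C1 was placed here although its in vitro substrates named above are flavonols and hydroxycinnamates. UGT73C1, which also acts on xenobiotics, was placed among the hormone UGTs. Of the same list, UGT73B5 (AT2G15480) was at 0.029 ± 0.14 (SD, n = 3). The 4-week median of the list was 0.0091, with 3 genes above and 3 below 0, and it was -0.032 with the Cy5 array of replicate 1 alone. The sterol glucosyltransferase genes UGT80B1 (AT1G43620) and UGT80A2 (AT3G07020), the second not counted among the 36, averaged -0.11 ± 0.29 and -0.069 ± 0.12 at 8 weeks (SD, n = 3 each). Of the 2 listed UGTs of glucosinolates, UGT74B1 was named.

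Genes around the UGTs and SCPLs in their pathways were thinly named on the array. Of 23 genes of sinapate ester synthesis 2 were named. ALDH2C4 (AT3G24503), the aldehyde dehydrogenase that forms sinapate and ferulate, had ratios of -0.32, -0.38 and 0.022 at 8 weeks and of -0.18, -0.18 and -0.49 at 4 weeks. HCT (AT5G48930), the hydroxycinnamoyl transferase of the monolignol pathway, averaged 0.040 ± 0.29 and 0.015 ± 0.22 (SD, n = 3 each). Of 33 flavonoid pathway genes only DFR (AT5G42800), dihydroflavonol reductase, was named, at -0.33 ± 0.60 at 8 weeks and 0.016 ± 0.49 at 4 weeks (SD, n = 3 each). Of 33 genes of UDP-sugar supply only USP (AT5G52560), a UDP-sugar pyrophosphorylase, was named, at -0.070 ± 0.16 and 0.12 ± 0.041 (SD, n = 3 each). None of these 4 genes had an unadjusted p under 0.05 at either age. Of the tissue markers, 1 of 19 for leaf and photosynthetic cells was named (RCA, 0.059 ± 0.14 at 8 weeks and -0.096 ± 0.20 at 4 weeks) and 1 of 13 for phloem (SWEET11, 0.44 ± 0.65 and -0.19 ± 0.77). The annotation named none for xylem and fibres, the epidermis or the flower, so the labelled tissue was not checked by its markers here. Probes for some of them are on the array without a name. The study's own fit listed CESA4, CESA7, CESA8, LAC4 and LAC17 as higher in SND2-OV(A) at 8 weeks. A shift in tissue composition beside the gene values was not tested.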

How the data were processed

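Total RNA of SND2-OV(A) and wild type stems was labelled and hybridized on 8 Agilent 2-colour arrays. The authors scanned them with a GenePix scanner, extracted features in GenePix Pro and normalized in limma; the deposited values are log2 ratios for 37685 probes, with none missing. They were read as SND2-OV(A) over wild type and used without a change of sign. For 216 of 223 probes of the study's list the mean differed from the listed change, put on the log2 scale, by less than 0.01. The study's array columns were assigned by label, and none was left over.

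Probes of 1 named gene were averaged (139 genes had several), and so were the 2 arrays of replicate 1. For each age limma 3.58.1 (R 4.3.3) was fitted to 3 ratios, intercept only, over 37479 features, with Benjamini-Hochberg adjustment; the ages were compared in one fit of 6 ratios. A feature passed at an adjusted p under 0.05 and over 1.5-fold. These are the thresholds the study states, but its own fit listed genes at them and this one listed none. Intervals are 95% limma intervals. The fit was also run on simulated data of independent normal values. These held no dye effect and no outlying array, so that run does not cover such features of the real arrays. Families and lists have counts and medians only, beside those of all features.

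Given in full were, per age, the 4 UGT and 2 SCPL genes at either end of the order by moderated t, the 3 and 2 of the age difference, and the named genes of 3 lists (hydroxycinnamate and monolignol UGT, flavonoid UGT, SCPL numbered 1 to 19). The members and lists were chosen with earlier results of these data known. The list symbols CHI and FDH name other genes in the annotation and were left out. Alternatives were each array of replicate 1 alone, a dye term, centring, scaling, probes kept apart, robust eBayes, other thresholds, both ages in 1 fit, the replicate block and each replicate left out. The counts and list medians with single arrays of replicate 1 were added after the data were seen. Gene order came from RefSeq; no coordinates are given because the build of the array annotation is not given in the sources used here. Summaries were computed in pandas 2.3.3 and numpy 2.4.6 and plotted in matplotlib 3.10.9 under Python 3.11.15.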

Additional observations from a re-analysis of the deposited data

Results flagged for a closer look

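UGT85A2 was singled out because the ages opposed each other. All 3 replicate SND2-OV(A)-to-wild-type ratios lay above 0 at 8 weeks and all 3 below 0 at 4 weeks, with a difference of 0.41 ± 0.15 (SE). The limma test of the difference gave an unadjusted p of 0.0364 and an adjusted p of 1.0 over all features, so the difference did not pass. Its range over the alternatives was 0.29 to 0.47.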

How the results depend on the processing

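No UGT or SCPL gene passed the thresholds at 8 weeks, at 4 weeks or for the difference of the ages under any alternative tried. Over all features, 2 passed at each age with both ages in 1 fit, and 0 to 3 at 8 weeks with 1 replicate left out. The UGT median at 8 weeks ranged from -0.098 to 0.023 with 1 replicate left out and was above 0 only without replicate 2. With replicate number as a block in the fit of the ages, 0 genes passed. The numbers pair nothing in the labels, and deviations of same-numbered samples correlated at -0.020, 0.12 and 0.16. Of 56 gene and comparison pairs named by the rule, 43 kept their sign throughout. With a dye term the sign turned for SCPL40 at 8 weeks (0.010), SCPL16 at 8 weeks (0.0020), UGT79B6 at 8 weeks (-0.013), UGT71C1 at 4 weeks (-0.0030) and SCPL16 at 4 weeks (-0.011). With replicate 1 taken from its Cy3 array it turned for UGT79B6 at 8 weeks (-0.064) and SCPL16 at 4 weeks (-0.048), and with arrays centred on their medians for SCPL16 at 4 weeks (-0.0012). With 1 replicate left out, the ratio at 8 weeks ranged from -0.15 to 0.10 for SCPL40, -0.11 to 0.027 for SCPL16 and -0.028 to 0.047 for UGT79B6. At 4 weeks it ranged from -0.061 to 0.039 for SCPL16, -0.028 to 0.16 for UGT71C1, -0.19 to 0.20 for UGT72B1, -0.15 to 0.028 for UGT72E3, -0.16 to 0.27 for UGT73B3, -0.22 to 0.95 for UGT73C6, -0.028 to 0.20 for UGT78D1, -0.17 to 0.29 for UGT78D3, -0.38 to 0.10 for UGT79B6 and -0.18 to 0.13 for UGT84A3. The cause was not tested. The values used here hold no intensities, so what signal over background limits could not be examined.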

Other observations

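A further SCPL gene, SCPL43, is not named by the annotation and was identified only through the study's own list of called genes, so its direction is fixed by that choice and it was not counted. Its SND2-OV(A)-to-wild-type ratios were -0.68, -0.55 and -1.79 at 8 weeks and 0.13, 0.19 and -0.12 at 4 weeks. The 8-week values all lay below the 4-week values, as they did for 4.38% of all features. Because the gene was chosen by its 8-week call, this separation is favoured by the choice and nothing is drawn from it.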
